A study of Mus musculus with 16 samples.

Results

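The messenger RNAs of the cytosolic ribosomal proteins were examined in RNA bisulfite libraries of mouse embryonic stem cells, all of J1 background and either wild type or Dnmt2-/-. A reference RNA was taken as a member when its gene symbol was Rpl or Rps plus a number (with an a, x or l suffix allowed), Rplp0, Rplp1, Rplp2 or Rpsa. Kinases and binding proteins of similar name, pseudogenes and 2 references on chromosome 8 were left out. This gave 93 reference RNAs of 81 genes, 51 for the large subunit and 30 for the small subunit, out of 15330 reference RNAs. Members held 14287 of the 4938637 cytosines listed in any library. The cells had been grown on mouse embryonic fibroblast feeders, which were taken out before harvest by their faster attachment to plastic. The libraries used are the rRNA-depleted long RNA fraction, 3 of each genotype, and the remaining 10 of the 16 libraries were not used. Dnmt2, whose gene symbol is Trdmt1, is an RNA cytosine methyltransferase known for methylating tRNAs. The labels do not say whether replicates are separate cultures or clones, so each p-value reflects the spread among these samples alone, and that spread may be technical.

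Ribosomal proteins are made for a particle that every growing cell needs in large number, and their mRNAs are among the most abundant of proliferating cells. Most begin with a 5′ terminal oligopyrimidine tract (TOP), a cytosine at the cap followed by a run of pyrimidines, through which the mTOR pathway and the protein Larp1 control their translation. Bisulfite turns unmethylated cytosine into uracil and spares 5-methylcytosine. Non-conversion is the percentage of reads showing an unchanged cytosine at a position. It is therefore read as an upper estimate of methylation, because poorly denatured RNA also resists conversion.

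The libraries listed 2304342 to 4289381 mRNA cytosines with a coverage summed over cytosines of 37786723 to 143488903 reads, lowest in wild type replicate 3. The median coverage of a listed member cytosine was 201 reads in that library and 431 to 653 in the others. Trdmt1 had a scaled mean coverage of 4.73, 3.80 and 3.21 reads per cytosine in wild type, against 1.42, 0.501 and 1.07 in the knockout, without overlap. Of 10 embryonic stem cell markers, 8 were tested, and their 9 references had a median of 59.4 reads per cytosine on average. Pou5f1 at 195 and Dppa5a at 1462 lay above that median. The summed coverage of the 8 feeder fibroblast markers tested was 34.6, 38.3 and 73.1 in wild type, against 41.7, 38 and 19.8 in the knockout, highest in wild type replicate 3. Of the 10 feeder markers, 2 were listed in no library.

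The 5′ ends show where these transcripts begin to be read. The first 30 bases of 6 members are given from RefSeq starts on GRCm38.p6, in the direction of transcription. They were picked to show starts with and without a pyrimidine tract that opens at the first well-covered cytosine. Capitals mark cytosines that were listed in all 6 libraries.
Rpl12: gtCttttCggCtttCggCtCggaggaggCa
Rpl13a: gacctcctCCtttCCCaggCggCtgCCgaa
Rpl18: gctctttcCCCgCCCaCtCCggCgCggttC
Rplp0: ggaccgcctggttctcctataaaaggcaca
Rps12: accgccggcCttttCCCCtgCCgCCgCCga
Rpsa: acgtcatttccggccgcccgtCCtttCgCg
They lie at chr2:32961712-32961741 on the plus strand (Rpl12), chr7:45128716-45128745 on the minus strand (Rpl13a), chr7:45718071-45718100 on the plus strand (Rpl18), chr5:115559467-115559496 on the plus strand (Rplp0), chr10:23787180-23787209 on the minus strand (Rps12) and chr9:120127766-120127795 on the plus strand (Rpsa).

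In Rpl12, Rpl13a, Rps12 and Rpsa, the first cytosine listed in every library opened a tract of a cytosine and 4 pyrimidines, inside the RefSeq exon rather than at its first base. In Rpl18 the first such cytosine, at position 9, lies inside a pyrimidine run but too near its end to open the tract. In Rplp0 no cytosine of the first 30 bases was listed in all 6 libraries. RefSeq starts were found for 62 member genes. Among their 74 starts, 13 (17.6%) carried a C followed by 4 pyrimidines (C or T, sense strand only) at position 1, against 2.51% of all 32851 starts. The tract began somewhere in positions 1 to 20 in 39 member starts (52.7%), against 28.4% of all starts. At least 5 cytosines were listed in positions 1 to 50 of 54 member references with a start. Positions could be matched, with every listed cytosine falling on a C, for 32 of these and for 3121 other references. The shares that follow cover matched references alone. Of the 26 members among them with a cytosine in positions 1 to 50 listed in all 6 libraries, that first cytosine opened the tract in 15 (57.7%), against 95 of 1486 other mRNAs (6.39%). Depth differs between these sets. With a mean coverage of 100 reads or more, the counts were 13 of 20 members (65.0%) and 18 of 121 others (14.9%). The 15 members were Rpl10, Rpl12, Rpl13a, Rpl19, Rpl23, Rpl35a, Rpl36a, Rpl37, Rpl37a, Rpl6, Rpl9, Rps12, Rps15, Rps23 and Rpsa. A match of letters is a description and no test was made of it.

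Cytosines at the very start were seldom covered. Of member cytosines in positions 1 to 10, 9.57% were listed in all 6 libraries, rising to 22.2%, 37.8%, 67.0% and 70.7% over the next 4 bins of 10 bases. In other mRNAs these shares were 3.84%, 13.6%, 23.4%, 33.5% and 42.4%. The median member coverage in positions 41 to 50 was 40.3 reads, against 5.17 in other mRNAs.

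**Figure D1:**
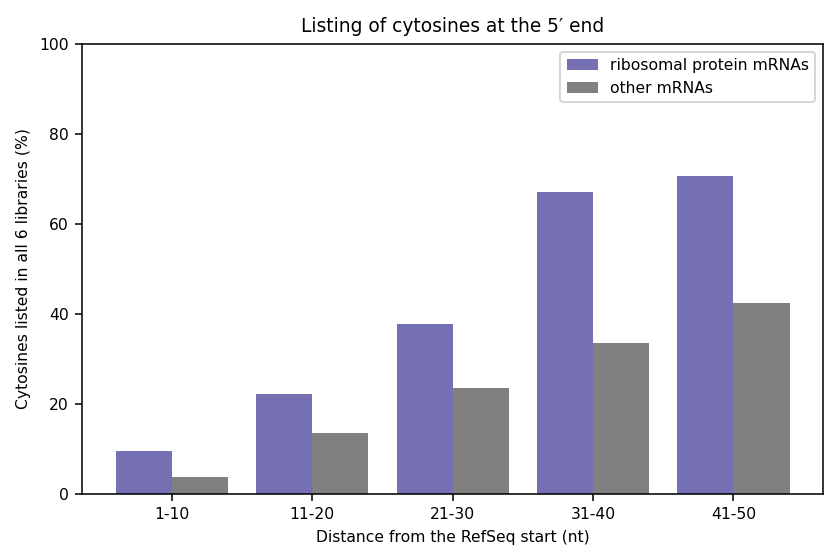
Share of cytosines listed in all 6 libraries (vertical axis, percent) by distance from the RefSeq start (horizontal axis, bins of 10 nt), for members and other mRNAs whose listed cytosines all fall on a C. Both sets rise from under 10% in the first bin, members to 70.7% and other mRNAs to 42.4%.

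Coverage of the ribosomal protein mRNAs was compared between genotypes to ask whether loss of Dnmt2 went with a different amount of these transcripts. Coverage is the mean number of reads over a reference's listed cytosines, scaled by library, so that levels are per position. Some references list only part of their length, such as Rpl24 at positions 467 to 675. Levels therefore compare only roughly between genes. In bulk RNA, fewer cells and less RNA per cell cannot be told apart. No member differed between genotypes by limma (adjusted p under 0.05): 0 of 91 tested members, from 80 genes, were called in either direction, and 0 had an unadjusted p under 0.05. Among all 11240 references tested, percent called was 0 in each direction, and 775 (6.9%) had an unadjusted p under 0.05. The knockout value was the higher one in 53 members and the lower one in 38, where 55.2% of all references were higher. The median log2 difference, knockout minus wild type, was 0.03 over the members and 0.03 over all references. It was 0.04 for the 58 large-subunit references and 0.00 for the 33 of the small subunit.

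These data bound the difference for most members. The 95% interval of the log2 difference lay within 1 in both directions for 78 of the 91 members, and for 66 of the 71 with a mean coverage of 100 or more. The median half-width of the interval was 0.46. A share of the coverage summed over mRNA cytosines was also taken, in which a read counts once per cytosine. Members made up 11.6%, 10.6% and 11.1% of it in the wild-type libraries and 11.6%, 11.4% and 11.3% in the knockout. The means were 11.1% ± 0.544 (SD, n = 3) and 11.4% ± 0.140 (SD, n = 3), and the genotypes overlapped (exact permutation p = 0.5, two-sided, smallest possible 0.1). Over the 91 members, Spearman's rho between any 2 libraries ranged from 0.968 to 0.997, a correlation across genes, which are not independent replicates.

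**Figure D2:**
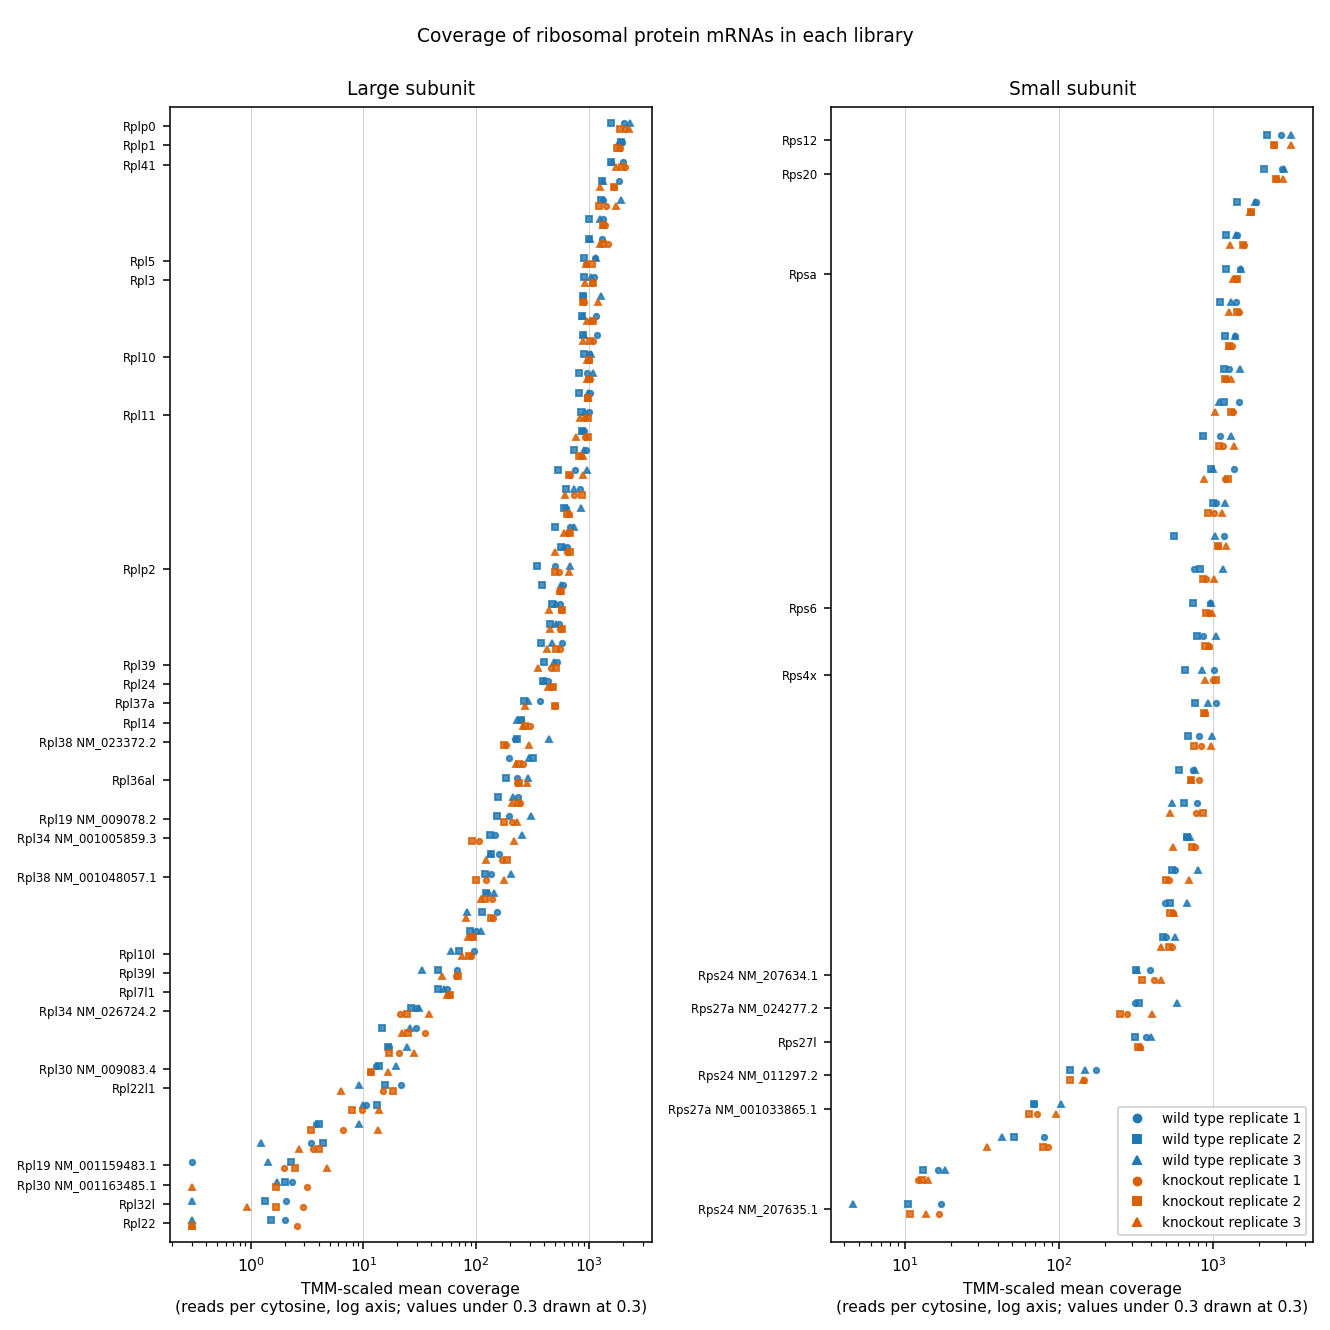
Scaled mean coverage (horizontal axis, reads per cytosine, log axis) of the 91 tested member references (vertical axis, ordered by mean, with members described in the text labelled) in each of the 6 libraries, wild type in blue and knockout in orange. Blue and orange points overlap for all members except Rpl24 and Rpl14, and levels span from about the filter limit to those of Rps12 and Rps20.

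The most covered members were Rps12, Rps20, Rplp0, Rplp1 and Rpl41. Rps12, a small-subunit protein, had 2790, 2273 and 3246 reads per cytosine in wild type, against 2508, 2491 and 3251 in the knockout, a log2 difference of -0.01 ± 0.26 (SE). Rps20, also of the small subunit, followed with 2829, 2151 and 2921 against 2600, 2591 and 2888. Wild type replicate 2 was the lowest wild-type library for both, and the genotypes overlapped. Rplp0, the scaffold of the ribosomal stalk that recruits translation factors, had 2028, 1559 and 2286 reads per cytosine in wild type, against 2090, 1879 and 2238 in the knockout. Its stalk partner Rplp1 was among the least variable, at 1897 ± 64.4 (SD, n = 3) and 1832 ± 60.7 (SD, n = 3), while Rplp2 lay lower at 504 ± 163 and 565 ± 84.9. None of the stalk proteins passed the test, with log2 differences of 0.09, -0.05 and 0.20 in that order. Rpl41, one of the shortest known proteins, had 1719 ± 253 against 1924 ± 194.

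Members with roles outside the ribosome were likewise indistinguishable between genotypes at this replication. Rpl5 and Rpl11, which with 5S rRNA form the particle that restrains Mdm2 and so links ribosome assembly to p53, had log2 differences of -0.11 ± 0.19 (SE) and -0.02 ± 0.17. Rpl5 had 1060 ± 136 reads per cytosine in wild type, against 976 ± 65.7 in the knockout, and Rpl11 had 925 ± 78.9 and 909 ± 69.8. Rps6, the classical target of S6 kinase, had 895 ± 133 and 948 ± 36.1. Rpsa, the laminin receptor, had 1416 ± 168 and 1411 ± 38.6, a log2 difference of 0.00 with a 95% interval from -0.45 to 0.45. Rps27a is made as a fusion with ubiquitin. Its more deeply covered reference had 313, 330 and 585 reads per cytosine in wild type, against 277, 251 and 405 in the knockout, with replicate 3 the highest library of each genotype.

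Paralogues of core proteins differed in how their coverage compared with that of their counterparts. Rpl3l, a form of Rpl3 known from muscle, was listed in 2 libraries only, at 2.21 and 1.55 reads per cytosine in wild type replicates 1 and 2, and was too low to test. Rpl3 itself had 1015 ± 98.3 in wild type, against 1016 ± 90.0 in the knockout. Rpl10l and Rpl39l, known from male germ cells, had means over all libraries of 79.2 and 55.3 reads per cytosine, against 978 for Rpl10 and 452 for Rpl39. Rpl7l1 had 53.5 against 736 for Rpl7, and Rpl36al 241 against 529 for Rpl36a. Rpl22l1 lay the other way, at 14.2 against 1.02 for the Rpl22 reference. That Rpl22 reference listed only 19 cytosines, at positions 403 to 515, and Rpl22l1 only 20, at 86 to 218. These levels are those of short stretches and need not be those of the genes. Rps27l had 360 ± 42.8 in wild type, against 333 ± 3.77 in the knockout. Rps4x, the X-linked form of Rps4, was at the level of core members with 845 ± 180 and 984 ± 84.2. None of the tested paralogues passed the test.

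The widest differences were mostly those of thinly covered references. The 5 largest upward log2 differences were 1.29 for Rpl19 NM_001159483.1, 0.72 for Rpl32l, 0.49 for Rps24 NM_207635.1, 0.41 for Rpl37a and 0.38 for Rpl39l. Rpl19 NM_001159483.1 rested on 0, 2.27 and 1.42 reads per cytosine in wild type, against 1.99, 2.45 and 4.74 in the knockout (limma adjusted p = 0.84), and the genotypes overlapped. The other reference of Rpl19, with 218 ± 80.9 and 203 ± 27.6 reads per cytosine, had a log2 difference of -0.04. Rpl37a was well covered at 368, 266 and 289 in wild type, against 494, 503 and 269 in the knockout. There the third knockout library fell among the wild-type values.

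The 5 largest downward differences were -0.57 for Rpl22, -0.49 for Rpl30 NM_001163485.1, -0.41 for Rpl34 NM_001005859.3, -0.41 for Rpl38 NM_023372.2 and -0.37 for the better covered Rps27a reference. Rpl22 had 2.01, 1.52 and 0 reads per cytosine in wild type, against 2.60, 0 and 0 in the knockout. With Rpl19 NM_001159483.1, Rpl30 NM_001163485.1 and Rpl32l it made up the 4 least covered members that were tested. Rpl34 NM_001005859.3, at 145, 133 and 255 against 106, 91.3 and 218, and Rpl38 NM_023372.2, at 222, 228 and 442 against 183, 177 and 296, both had their highest value of each genotype in replicate 3. In 8 genes several references split the reads (20 references), and those list mainly the stretches that tell isoforms apart, so their levels are not those of the gene.

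In 2 members, Rpl14 and Rpl24, every knockout library lay above every wild-type library, and in none did every one lie below; over all references tested these shares were 6.09% and 5.85%. Rpl14 had 251, 249 and 231 reads per cytosine in wild type, against 299, 271 and 262 in the knockout, a log2 difference of 0.18 (limma adjusted p = 0.93). Rpl24 had 428, 388 and 395 against 454, 478 and 434, a log2 difference of 0.17 (limma adjusted p = 0.96). The members' share without overlap was below the background in both directions.

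**Figure D3:**
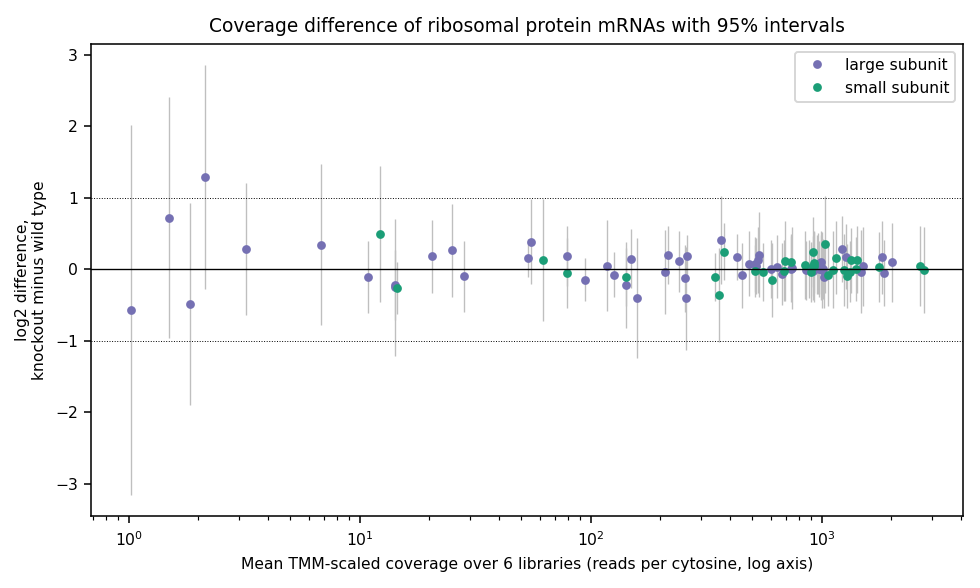
Log2 difference in coverage, knockout minus wild type (vertical axis), against mean scaled coverage (horizontal axis, reads per cytosine, log axis) for the 91 tested members, with 95% intervals from limma as bars. Dotted lines mark -1 and 1; members of 100 reads or more cluster around 0 and the wide intervals belong to the least covered references.

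Other genes of the translation machinery were set beside the members. Of 78 references to mitochondrial ribosomal proteins 0 were called, with a median log2 difference of 0.05 and 2 at an unadjusted p under 0.05. The most covered was Mrpl18 at 95.2 ± 12.3 in wild type, against 104 ± 4.85 in the knockout, well under most cytosolic members. Among 22 references to other TOP mRNAs, such as Eef1a1, the elongation factor that delivers aminoacyl-tRNA, 0 were called and the median was -0.03. Eef1a1 had 3372 ± 765 and 3182 ± 194 reads per cytosine. Among 25 references to ribosome biogenesis factors, such as the rRNA methyltransferase Fbl at 197 ± 34.5 and 193 ± 15.2, 0 were called and the median was -0.02. At an unadjusted p under 0.05 there were 1 of the other TOP references and 0 of the biogenesis factors. Stem cell markers had 0 calls in 9 references and a median of 0.17, with 2 (22.2%) at an unadjusted p under 0.05. Feeder markers had 0 calls in 8 references, a median of -0.71 and all 8 differences below 0, with 1 (12.5%) at an unadjusted p under 0.05. The part of residual feeder RNA in the members' values was not tested.

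Non-conversion of the member transcripts was then compared. Pooled over member cytosines with 10 reads or more, it was 1.67%, 1.50% and 1.60% in wild type, against 1.86%, 1.84% and 1.47% in the knockout. Knockout replicate 3 was the lowest of all 6 libraries and the other two knockout libraries the highest. The means were 1.59% ± 0.0857 (SD, n = 3) and 1.72% ± 0.217 (SD, n = 3), a difference of 0.135 percentage points (exact permutation p = 0.4, two-sided). Other mRNAs, pooled in the same way, had means of 1.58% and 1.72%. Member minus other was 0.00683 points on average over 6 libraries, above 0 in 4 of them (exact paired permutation p = 0.125, two-sided, smallest possible 0.03125). The size of this gap depended on which cytosines were pooled. Over cytosines of 10% or less alone, members exceeded other mRNAs in all 6 libraries, by 0.0787 points on average, and at 20 reads or more the gap was 0.00902 points (exact paired permutation p = 0.03125 for each, the smallest possible). The 10% cut acts on each library's own level, and members were much deeper. In wild type replicate 1 it took other mRNAs from 1.66% to 1.58% and members from 1.67% to 1.66%. The part of depth in the 0.0787 points was not tested. Without Rps2, left out after its values were seen, the gap was 0.0027 points (exact paired permutation p = 0.406).

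Individual members varied little. Over the 65 members with at least 50 cytosines covered by 10 reads in every library, mean non-conversion ran from 1.45% to 1.95%, with a median of 1.67%. The 3475 other references so covered ran from 1.25% to 3.09%, with a median of 1.65%. The highest members were Rps18 at 1.95%, Rpl27a at 1.91%, Rps19 at 1.91% and Rps2 at 1.89%. In positions 1 to 50, members averaged 1.22% and other mRNAs 1.52%. Members were also the lower set in positions 51 to 100 (1.55% and 1.73%), 101 to 200 (1.76% and 1.82%) and 201 to 400 (1.71% and 1.76%). From position 401 on they were the higher one (1.75% and 1.64%), and these differences were not tested. Cytosines standing alone averaged 1.74% in members, those in runs of 2 averaged 1.68% and those in runs of 3 or more 1.59%, an order that other mRNAs shared (1.73%, 1.64% and 1.51%).

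Of 10667 member cytosines covered by 10 reads or more in every library, 64 (0.600%) had a mean non-conversion of 5% or more, against 1.11% of 731058 cytosines in other mRNAs. At 10% or more the shares were 17 cytosines (0.159%) in members and 0.0600% in others. Members were much deeper, with a median coverage of 748 reads at these cytosines against 42.7. The 64 cytosines were spread over 27 genes, with 18 in Rps2 and 7 in Rpl7l1.

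A cytosine was called methylated in a genotype when its non-conversion exceeded the library background and reached 10% in every library of that genotype. In wild type 9 of 10743 member cytosines were called (0.0838%, with 0.0212% of all mRNA cytosines tested), and in the knockout 6 of 11431 (0.0525%, with 0.0283% of all). Members were much deeper than other mRNAs, and the same level passes the test more readily with more reads. The part of depth in these shares was not tested. Calls fell in 10 genes, 1 cytosine in each. Of the 10 cytosines, 5 were called in both genotypes, 4 in wild type alone and 1 in the knockout alone. The last, in Rpl26, was not tested in wild type because replicate 3 had only 8 reads there. A call in one genotype alone does not show a difference between genotypes. Without knockout replicate 2, or without knockout replicate 3, the knockout count was 10 instead of 6.

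**Figure D4:**
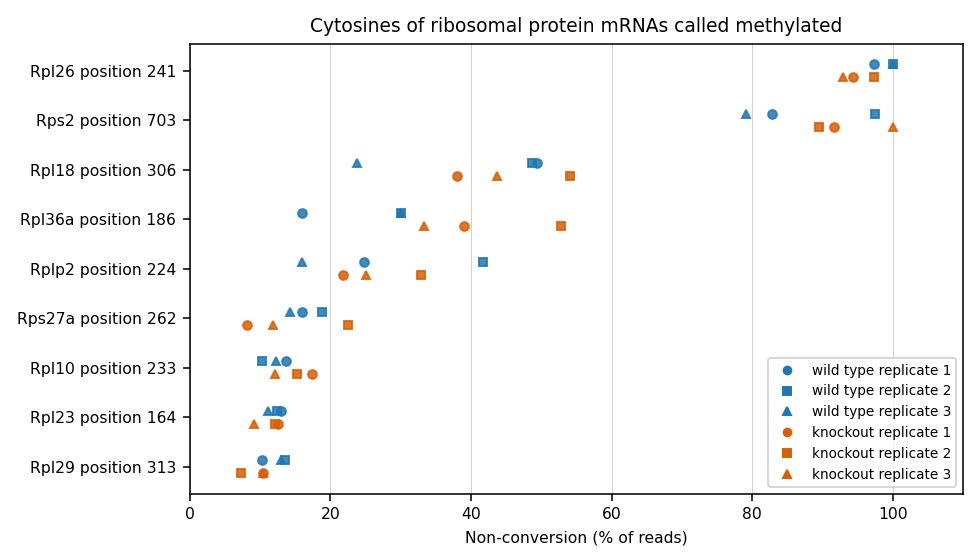
Non-conversion (horizontal axis, percent of reads) in each of the 6 libraries at 9 of the 10 member cytosines called methylated in either genotype (vertical axis, ordered by mean), wild type in blue and knockout in orange. Rpl26 position 241 and Rps2 position 703 lie near complete non-conversion in both genotypes, and no other value exceeds 54.1%.

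Positions are numbered along the reference RNA, starting with 1 at its 5′ end. The highest was Rpl26 position 241, in a large-subunit protein that also binds p53 mRNA. It read 97.4%, 100% and 100% in wild type, from 38, 50 and 8 reads, and 94.3%, 97.4% and 92.9% in the knockout, from 35, 38 and 28 reads. Its neighbours within 20 nt averaged 2.30%, so the signal was 1 base wide. Next came Rps2 position 703, in a protein of the small subunit's mRNA entry channel, with 82.8%, 97.4% and 79.2% in wild type, against 91.7%, 89.5% and 100% in the knockout, at 19 to 39 reads. Its neighbours averaged 1.86%. Both sites were high in every library of both genotypes.

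Intermediate levels were seen at 4 of the cytosines described here. Rpl18 position 306 had 49.4%, 48.6% and 23.7% in wild type, against 37.9%, 54.1% and 43.6% in the knockout, lowest in the shallow wild type replicate 3, which had 59 reads there. Rpl36a position 186 had 16%, 30% and 30% against 39.0%, 52.8% and 33.3%, without overlap, at 20 to 41 reads. Rplp2 position 224 had 24.8%, 41.7% and 15.9% against 21.8%, 32.8% and 25%. The genotypes overlapped at Rpl18 and Rplp2. Rps27a position 262 averaged 16.3% ± 2.26 and 14.2% ± 7.44 (SD, n = 3 each).

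A further 3 sites were low in level and deep in reads. Rpl10 position 233 had 13.7%, 10.3% and 12.2% in wild type, against 17.4%, 15.3% and 12.1% in the knockout, from 311 to 1635 reads. Rpl10 sits near the catalytic centre of the large subunit and is among the last proteins to join it. Rpl23 position 164 averaged 12.2% ± 0.950 and 11.3% ± 1.84, and Rpl29 position 313 averaged 12.3% ± 1.72 and 9.32% ± 1.82 (SD, n = 3 each). The genotypes overlapped at Rpl10 and Rpl23, and at Rpl29.

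Among the called cytosines, the more poorly covered places had the higher levels, a split that the condition for a call partly sets. Of the 10, 7 had under 30% of the mean coverage of their own reference. Of the 10667 member cytosines with 10 reads or more in every library, 13.2% lie there. Rpl26 position 241, with 8 reads in wild type replicate 3, is among the 7 but not among the 10667. The 3 at or above that coverage had mean levels of 13.5% or less, and all 7 of the others had higher ones. With few reads, only a higher level exceeds the background after adjustment, so a low level could seldom be called there. The part of this condition in the split was not tested. In other mRNAs 44 of 421 called cytosines (10.5%) lay under that limit, and 1.18% of cytosines did. Rps2 position 703 had 29.3 reads on average in a reference of mean 716, and coverage fell from 693 reads at position 647 to 41.3 at 688. Rpl18 position 306 had 103 reads on the way from 683 at position 247 to 13.8 at 358.

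Rpl26 showed another shape. Coverage rose from 1.33 reads at position 182 to 12 at 206 and 33.2 at 239, stood at 32.8 at the non-converted cytosine, and fell to 13.0 at 268 and 1.17 at 301. The peak was centred on the cytosine that was not converted. Rpl10 position 233 had a step instead, from 538 reads at position 224 to 1012 at 232 and 1008 at the cytosine. Ribosomal protein genes have many processed copies in the genome. Reads of near-identical copies cannot be told apart in these files, so the origin of the reads at these sites is uncertain, and their part in the levels was not tested.

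**Figure D5:**
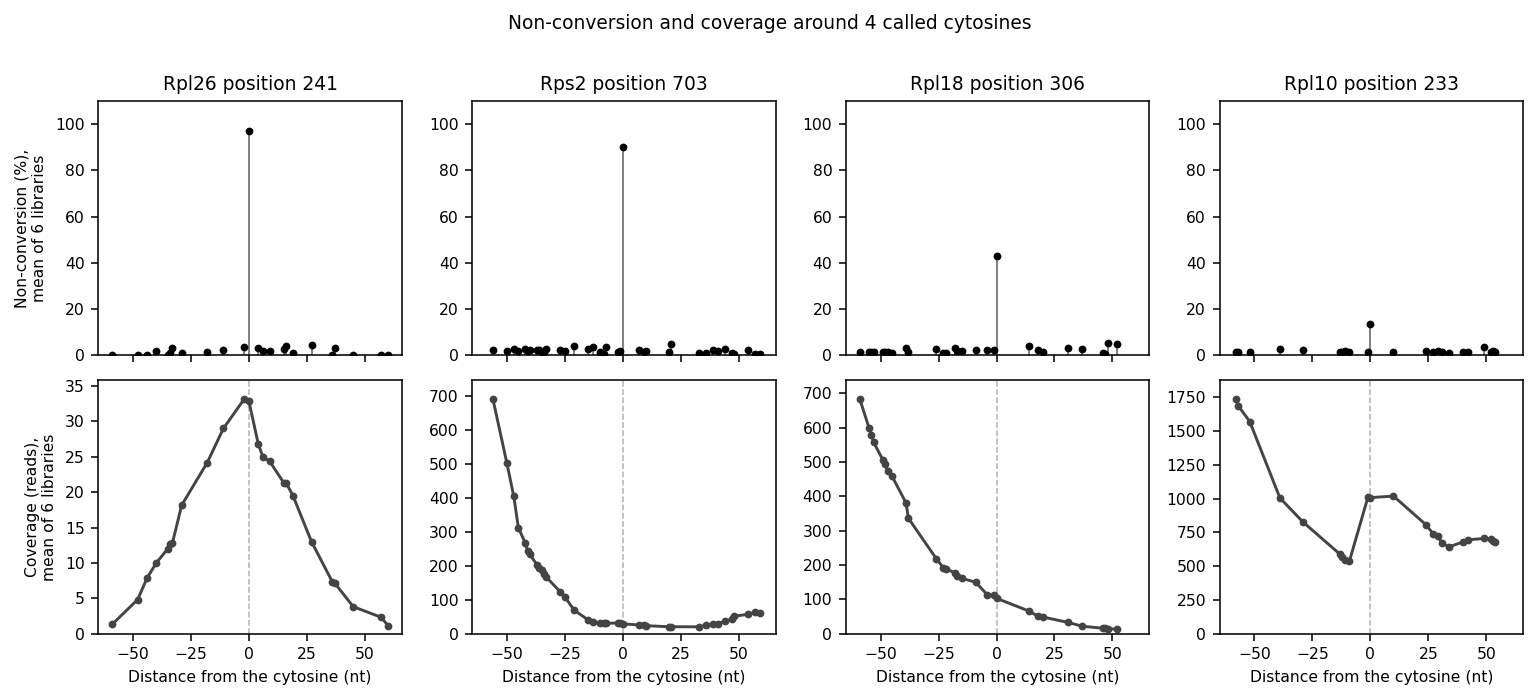
Mean non-conversion (top row, percent) and mean coverage (bottom row, reads) over the 6 libraries at each listed cytosine within 60 nt of 4 called cytosines, by distance in nt. High non-conversion stands at 1 position in each panel, while coverage peaks at the site in Rpl26, falls through it in Rps2 and Rpl18, and steps up just before it in Rpl10.

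Clusters of moderately non-converted cytosines were a different pattern, and these places were chosen after their values were seen. In Rps2 positions 101 to 200, pooled non-conversion was 4.60%, 3.88% and 4.77% in wild type, against 5.70%, 5.40% and 5.50% in the knockout, where all 3 knockout libraries lay above wild type (exact permutation p = 0.1, the smallest possible). Such separation was seen at 4.4% of all single cytosines tested, and no share over windows is given here. It is therefore no result on genotype. The Rps2 window was the highest of 449 member windows of 100 nt by its unweighted mean of 5.97%, and 21 of 31945 windows in other mRNAs (0.0657%) were higher. Within it, position 104 read 7.34%, 6.51% and 37.3% in wild type, against 12%, 7.69% and 25.8% in the knockout. Both replicate 3 libraries stood apart there, as they did at positions 105 and 106. In Rpl7l1 positions 713 to 724, wild type replicate 3 alone stood apart, with 41.7% to 54.5% of 11 or 12 reads. Windows at 3% or more made up 4 of the 449 member windows (0.891%) and 0.836% of the others.

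Genotypes were compared cytosine by cytosine at the 64 member cytosines of 5% or more. With the edgeR quasi-likelihood test, 0 of 64 passed an adjusted p of 0.05 and 0 had an unadjusted p under 0.05. Over all 8186 mRNA cytosines tested, percent called was 0, with 201 (2.46%) at an unadjusted p under 0.05. Fisher's exact test on summed reads, which ignores the spread between libraries, called 1 member, Rpl10 position 233 (log2 odds 0.42, adjusted p = 0.0434), among 27 in all. At that site the edgeR log2 odds were 0.35 (adjusted p = 0.999) and the third knockout library fell inside the wild-type range. All 3 knockout libraries lay above wild type at 3 of the 64 cytosines and below it at none, with 4.4% and 3.49% over all cytosines tested.

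Among the 5 member cytosines of lowest p were Rps19 position 484, Rplp0 position 368, Rpl8 position 415 and Rpl36a position 186. Rps19, the gene most often mutated in Diamond-Blackfan anaemia, had 4.67%, 3.81% and 3.08% in wild type, against 7.83%, 8.78% and 3.06% in the knockout. Rplp0 position 368 had 9.19%, 9.17% and 6.85% against 12.8%, 12.3% and 8.75%. Rpl8 position 415 had 9.75%, 5.53% and 3.27% against 10.6%, 12.6% and 5.47%. In each of these 3, knockout replicate 3 was the lowest knockout library, as it was in the pooled non-conversion, and values overlapped between genotypes.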

How the data were processed

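Per the file headers, the deposited files give for each cytosine of a RefSeq mRNA the coverage, a count of reads, and the unconversion ratio, a fraction of those reads. The submitters' processing notes name BSMAP and mm9; its version and any filters were not given in the sources used here. No listed coverage was under 3, and an unlisted cytosine was taken as 0 in coverage. Coverage times ratio was a whole number (tolerance 0.01) in all 20824445 entries read, so non-converted reads were recovered. Symbols came from RefSeq on GRCm38.p6 and matched 15239 of 15330 references.

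Members, gene lists and tests were chosen with earlier results of these data known. Named members were the 6 highest and 4 lowest in coverage, the 5 largest differences each way, those with the roles described and their paralogues; named sites were all those called and the 5 of lowest p. Some results that this rule names are not reported here. Coverage of a reference, the mean over cytosines listed in any library, was scaled by TMM (edgeR 4.0.16, R 4.3.3), filtered (mean of at least 1), transformed to log2 after adding 0.5 and tested by limma 3.58.1 with its trend option, a scale that understates changes at low coverage. Site differences used the edgeR quasi-likelihood test on non-converted and converted reads, with a term per library, at cytosines with 10 reads in every library and a mean of 5% or more. Calls within a genotype used 1-sided exact binomial tests against the library background, combined by Fisher's method, with 10 reads and 10% in every library. The background was the pooled non-conversion at cytosines of 10% or less. P-values were adjusted by Benjamini-Hochberg over all features tested. Both fits were run on simulated data whose spreads were set by hand and not taken from these libraries. Recovery is not reported here, so the size of a site difference that could be missed is not stated. The reads carry no molecular identifiers, so they are not independent molecules. Alternatives were other scalings and thresholds, left-out libraries and a replicate block.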

Additional observations from a re-analysis of the deposited data

How the results depend on the processing

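Of 325 values under alternative settings, 58 for the main comparisons and 257 for single genes or sites kept their direction and their side of the threshold or stayed within 1.5 times. With 1 library left out in turn, coverage calls among members stayed at 0 and site calls at 0. The pooled knockout minus wild type difference ranged from 0.0678 to 0.260 points, member minus other from 0.0054 to 0.00849 points, wild-type calls from 9 to 10 and knockout calls from 8 to 10. Knockout calls rose from 6 to 10 without knockout replicate 2, to 10 without knockout replicate 3, and to 10 with both replicate 3 libraries left out, a setting added after seeing the data. A call needs 10 reads and 10% in every library used, so leaving a library out removes a condition. At 20% or more, 2 wild-type cytosines were called. Fisher's exact test on summed reads called 1 member cytosine. Member minus other was 0.00902 points at 20 reads or more and 0.0787 points over cytosines of 10% or less, each with an exact paired permutation p = 0.03125, the smallest possible. The latter cut acts on each library's own level, while depth differs between members and other mRNAs. The log2 coverage difference of Rpl30 NM_001163485.1 ranged from -1.0 to 0.16 with 1 library left out, above 0 without knockout replicate 3, and was 0.0701 with both replicate 3 libraries left out, and that of Rps24 NM_207635.1 became -0.0089 in the latter setting. Beyond the condition for a call, the cause of these shifts was not tested.

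Same-numbered libraries correlated at 0.135, 0.036 and 0.295 in their deviations over 11240 references, and wild type replicate 1 correlated best with knockout replicate 2 (0.207), so the numbers were not taken as pairs. Wild type replicate 3 correlated at -0.173 and -0.187 with knockout replicates 1 and 2. Knockout replicate 3 correlated at -0.283 and -0.104 with wild type replicates 1 and 2. Deviations are from the genotype mean, so some negative values are built in. Both replicate 3 libraries thus shared a pattern, which the main tests, without a block, leave in the spread. With a replicate block, 0 members were called in coverage (5 at an unadjusted p under 0.05, lowest limma adjusted p = 0.287) and 0 in non-conversion (4 at an unadjusted p under 0.05), and the pooled difference of 0.135 points had an exact paired permutation p = 0.5. The shares of all references and cytosines under that unadjusted p with a block are not given here. The counts of 5 and 4 are therefore no result about the members. Depth limits sites such as Rpl36a position 186, read 20 to 41 times per library.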
